A study of Mus musculus with 6 samples.

Results

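The genes described here build the contractile apparatus of the heart muscle cell. They comprise 39 genes of the thin filament, of titin and the thick filament, of the M-band, of the Z-disc and of the proteins that anchor, sense and fold them. They were taken by name from the gene table, through their Entrez Gene IDs, and the myosin chains were left out. All 39 were among the 17570 genes listed, and 38 passed the limit on low values. RNA from mouse hearts was sequenced in 2 groups of 3 hearts, with a separate library for each heart. The study's supplement describes the tissue as whole heart, while the labels say only heart. Atrial and ventricular genes differed widely between the libraries, as given below. In KO/TAC, the mice were homozygous for a short deletion made with TALENs in the mature sequence of miR-27b-3p on a C57BL/6 background, and the deletion was carried by all cells of the body. In WT/TAC, the mice were wild-type C57BL/6J. Both groups had undergone transverse aortic constriction (TAC), a narrowing of the aorta that loads the left ventricle with pressure, as young adults, and hearts were taken 8 weeks later. No sham-operated hearts were analysed here, so the comparison is between genotypes under the same load. All KO/TAC hearts carry the same deletion, and the miRNA itself is not among the listed genes.

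In the sarcomere, thin filaments of actin, tropomyosin and troponin slide along thick filaments of myosin. Titin spans from the Z-disc, where thin filaments of neighbouring sarcomeres are crosslinked by α-actinin, to the M-band, where thick filaments are held together by myomesins. Calcium binding to troponin C sets contraction free. Several Z-disc and LIM-domain proteins also respond to stretch, and a loaded heart is known for the return of isoforms of the fetal heart, such as skeletal α-actin.

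Values are FPKM, fragments per kilobase of transcript and per 1000000 fragments, so genes of different length can be set side by side. Between hearts they are relative to the whole library, so a gene's value also depends on the levels of other genes. Size factors from median ratios ran from 0.986 in KO/TAC replicate 2 to 1.059 in WT/TAC replicate 1. The library sums ran from 519562 to 553716. Depth, estimated from the spacing of low values in units of 1000000 fragments, scored best at 13.3, 26.02 and 13.0 in KO/TAC and at 15.7, 15.0 and 15.2 in WT/TAC. These are rough figures, since only 59.4% to 71.9% of low values fell near a whole fragment. For KO/TAC replicate 2 a depth of 13.0 scored nearly as well as 26.02 (0.346 against 0.386, where 1 would be a perfect match), and for the other libraries the next best depth was 25.8 to 30.98 (scores of 0.291 to 0.403, against 0.323 to 0.506 for the best), so the depths are not settled and no result rests on them. The labelled tissue had its markers, as the summed level of 6 cardiomyocyte genes was 18695 to 19689 FPKM in KO/TAC and 16979 to 18563 FPKM in WT/TAC. The 6 were Myh6, Ryr2, Pln, Atp2a2, Tnnt2 and Nppb, of which Tnnt2 is also one of the genes described here. Nppb went the other way from the sum, at 758, 196 and 208 FPKM in KO/TAC, against 1854, 2097 and 798 FPKM in WT/TAC. WT/TAC replicate 1 stood apart. In that heart Myl2, the ventricular regulatory light chain, was at 81.0 FPKM and Myl3, its essential partner, at 188 FPKM, where the other 5 hearts had at least 9735 FPKM of Myl2 and 7011 FPKM of Myl3. The atrial light chain Myl7 was at 0.25, 333 and 0.66 FPKM in KO/TAC, against 8140, 0.23 and 1135 FPKM in WT/TAC. The 3 ventricular markers summed to 21226 to 23120 FPKM in KO/TAC and to 269, 19766 and 16758 FPKM in WT/TAC. The 5 atrial markers summed to 84.0 to 2048 FPKM in KO/TAC and to 6239 to 79791 FPKM in WT/TAC. Of these, Nppa alone was at 803, 1114 and 79.4 FPKM in KO/TAC, against 55795, 6236 and 5647 FPKM in WT/TAC. The atrial sum of WT/TAC replicate 2 was thus nearly all Nppa, with Myl4 at 2.34 FPKM. In KO/TAC replicate 2, Myl4 was at 472 FPKM. Results are therefore given with and without WT/TAC replicate 1. In RNA of heart tissue, fewer cells of a type and less RNA per cell cannot be told apart.

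The contractile genes as a whole were not displaced in one direction. A gene was taken to have risen or fallen where limma's unadjusted p was under 0.05 and the fitted fold at least 1.2. The study states a p limit of 0.05 and names 2-sample tests for comparing 2 groups. It states no fold limit, but the folds in its list of differing genes start at about 1.2. The limma calls given here are therefore not the study's own calls. Of the 38 genes tested, 2 rose in KO/TAC (Fhl2 and Tcap), where 4.94% of all 12520 genes tested did, and 4 fell (Ankrd1, Fhl1, Synpo2l and Tpm2), where 6.14% of all genes did. These are 5.26% and 10.5% of the genes described here. By limma, 0 of the 38 had an adjusted p under 0.05 over all genes tested, the lowest being 0.275, and 6 had an unadjusted p under 0.05. The gene-by-gene 2-sample test on FPKM also gave 0 under an adjusted p of 0.05. It called 2 (5.26%, where it called 8.16% of all genes), Fhl2 higher and Fhl1 lower. The study's list also holds Fhl2 as higher and Fhl1 as lower, but not Tcap, Synpo2l or Tpm2. The median log2 fold change of the 38 genes was 0.07, beside -0.005 over all genes tested. All 3 KO/TAC hearts lay above all 3 WT/TAC hearts for 2 genes, Tnni3 and Fhl2, where 8.46% of all genes did, and below them for 3, Ankrd1, Fhl1 and Synpo2l, where 9.79% of all genes did.

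With WT/TAC replicate 1 left out, the counts tilted towards lower levels in KO/TAC. Of the 38 genes 5 then rose (Fhl2, Tcap, Nebl, Tnni3 and Tnnt1), where 7.52% of all genes did, and 11 fell (Acta1, Ankrd1, Ankrd2, Des, Fhl1, Flnc, Lmod2, Nrap, Synpo2l, Tpm2 and Xirp1), where 7.47% of all genes did. These are 13.2% and 28.9% of the 38. The median log2 fold change was then -0.19, beside 0.02 over all genes. The 6 genes called with all hearts were called in the same direction without that heart. Of the 38 genes 1, Xirp1, then had an adjusted p under 0.05 by limma, at 0.0419. The heart left out had the lowest summed ventricular and the highest summed atrial markers, and their part in the tilt was not tested. A fit with log2 Myl7 as a covariate was run beside this omission. That fit called 3 genes higher (Tcap, Tnni3 and Tnnt1) and 7 lower (Ankrd1, Ankrd2, Fhl1, Flnc, Myom2, Synpo2l and Tpm2), and Fhl2 was not among them. The calls made up 7.89% (higher) and 18.4% (lower) of the 38, where 4.24% and 5.59% of all genes were called.

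**Figure D1:**
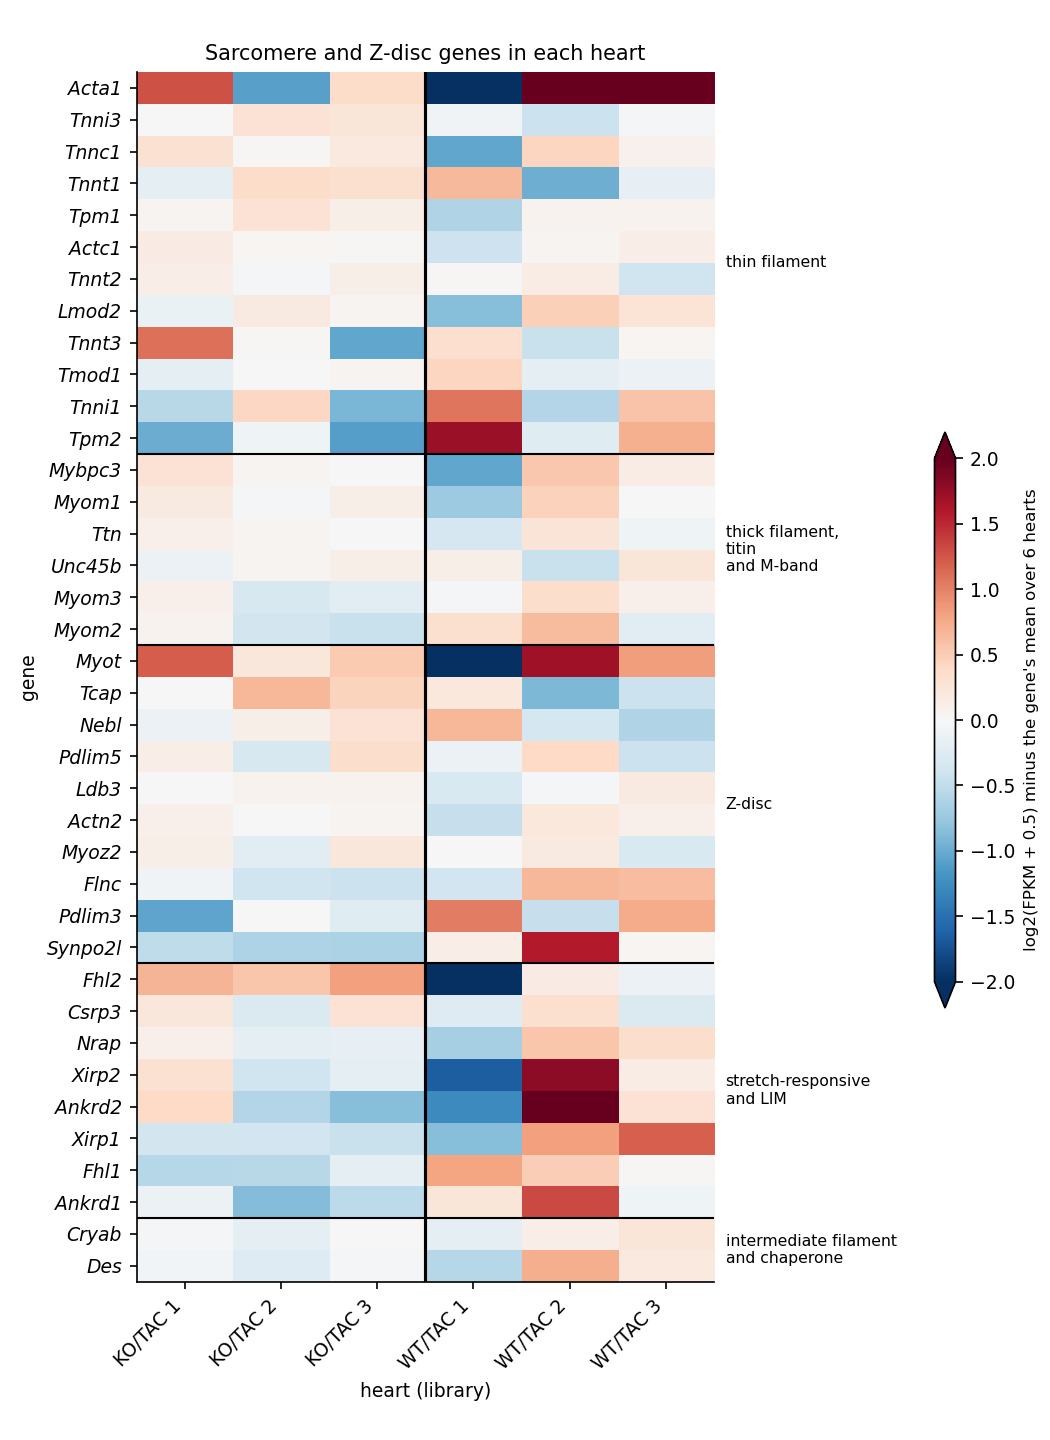
Levels of the 38 genes tested in each heart, as log2(FPKM + 0.5) minus the mean of the gene over the 6 hearts, with red for above and blue for below that mean. Columns are hearts, KO/TAC left of the line and WT/TAC right of it, and rows are genes grouped by role and ordered by fold change. The KO/TAC columns are pale for most genes, while WT/TAC 1 and WT/TAC 2 hold most of the extreme values, as for Acta1, Myot, Xirp2 and Ankrd2.

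Fhl2, which encodes a LIM-domain protein of the Z-disc and the nucleus (chr1:43123071-43198343 on GRCm38), was at 1331, 1211 and 1463 FPKM in KO/TAC, against 191, 922 and 765 FPKM in WT/TAC. The groups did not overlap, and the lowest value by far was that of WT/TAC replicate 1. The mean was 1335 ± 126 FPKM in KO/TAC and 626 ± 385 FPKM in WT/TAC (SD, n = 3 each), a log2 fold change of 1.37 on the log2(FPKM + 0.5) scale (standard error of the log2 fold change, SE, 0.56, adjusted p = 0.433). Without WT/TAC replicate 1 it came to 0.66 (SE 0.13, adjusted p = 0.149). Without any one of the KO/TAC hearts Fhl2 did not pass, with log2 fold changes of 1.31 to 1.44 and adjusted p of 0.695 to 0.962. It did not pass with log2 Myl7 as a covariate either (0.92, SE 0.51, adjusted p = 0.643), nor without the filter on low values or with quantile normalization.

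Tcap encodes telethonin, which caps the ends of titin at the Z-disc (chr11:98383811-98384953). It was at 1762, 2771 and 2381 FPKM in KO/TAC, against 2018, 941 and 1291 FPKM in WT/TAC. WT/TAC replicate 1 lay above KO/TAC replicate 1, so the groups overlapped. Tcap averaged 2305 ± 509 FPKM in KO/TAC and 1417 ± 549 FPKM in WT/TAC (SD, n = 3 each), and its log2 fold change was 0.75 (SE 0.31, adjusted p = 0.434). Leaving out WT/TAC replicate 1 gave 1.04 (SE 0.22, adjusted p = 0.167). Without KO/TAC replicate 2 or 3 or WT/TAC replicate 2 or 3 the call was lost, with log2 fold changes of 0.49 to 0.72 and adjusted p of 0.454 to 0.962.

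Ankrd1, a stretch-induced ankyrin repeat protein that binds titin's spring region and also acts in the nucleus (chr19:36111965-36119844), was at 1162, 692 and 877 FPKM in KO/TAC, against 1495, 3151 and 1187 FPKM in WT/TAC. The groups lay apart, though only by the step between KO/TAC replicate 1 and WT/TAC replicate 3, and WT/TAC replicate 2 was far above all other hearts. Means were 910.4 ± 237 FPKM in KO/TAC and 1944 ± 1057 FPKM in WT/TAC (SD, n = 3 each), a log2 fold change of -0.99 (SE 0.38, adjusted p = 0.409). Leaving out WT/TAC replicate 1 gave -1.12 (adjusted p = 0.298). Ankrd1 did not pass without WT/TAC replicate 2 (-0.58, adjusted p = 0.341) or without KO/TAC replicate 2 (-0.81, adjusted p = 0.720) or 3 (-0.98, adjusted p = 0.962).

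Fhl1, a LIM protein that takes part in a stretch-sensing complex with titin (chrX:56731209-56793346), was at 75.8, 77.3 and 99.1 FPKM in KO/TAC, against 196, 160.2 and 116 FPKM in WT/TAC. No heart of one group lay within the range of the other. Fhl1 averaged 84.1 ± 13.1 FPKM in KO/TAC and 157 ± 40.1 FPKM in WT/TAC (SD, n = 3 each), and its log2 fold change was -0.88 (SE 0.22, adjusted p = 0.275). It was the only one of the 38 genes called in the fit with all hearts, in each of the 6 fits with a heart left out and in each other alternative that was run. Its log2 fold change ran from -1.08 to -0.70 with a heart left out, and was -0.70 without WT/TAC replicate 1.

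Synpo2l, an actin-binding Z-disc protein of heart and skeletal muscle (chr14:20658945-20668354), was at 66.8, 61.55 and 61.2 FPKM in KO/TAC, against 105, 286 and 97.7 FPKM in WT/TAC. The KO/TAC hearts were nearly alike and below all WT/TAC hearts, of which WT/TAC replicate 2 stood out. The means were 63.2 ± 3.13 FPKM in KO/TAC and 163 ± 107 FPKM in WT/TAC (SD, n = 3 each), a log2 fold change of -1.17 (SE 0.39, adjusted p = 0.366). It was -1.40 without WT/TAC replicate 1 and -0.68 without WT/TAC replicate 2, and both passed. It did not pass without KO/TAC replicate 2 (-1.16, adjusted p = 0.695) or 3 (-1.15, adjusted p = 0.962).

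Tpm2, the β-tropomyosin of skeletal muscle, which is a minor form in the adult heart (chr4:43513726-43523583), was at 16.05, 30.6 and 14.8 FPKM in KO/TAC, against 109, 27.2 and 53.1 FPKM in WT/TAC. KO/TAC replicate 2 lay above WT/TAC replicate 2, and WT/TAC replicate 1 was the highest. Tpm2 averaged 20.5 ± 8.78 FPKM in KO/TAC and 63.1 ± 41.7 FPKM in WT/TAC (SD, n = 3 each), a log2 fold change of -1.46 (SE 0.51, adjusted p = 0.377). It passed without WT/TAC replicate 1 (-0.96, adjusted p = 0.323), but not without KO/TAC replicate 1 (-1.32, adjusted p = 0.693) or 3 (-1.27, adjusted p = 0.962) or WT/TAC replicate 3 (-1.47, adjusted p = 0.505). The 5 smooth muscle markers summed to 120.5, 248 and 119.5 FPKM in KO/TAC and to 119, 108 and 305 FPKM in WT/TAC, with their highest values in KO/TAC replicate 2 and WT/TAC replicate 3, and their part in the level of Tpm2 was not tested.

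**Figure D2:**
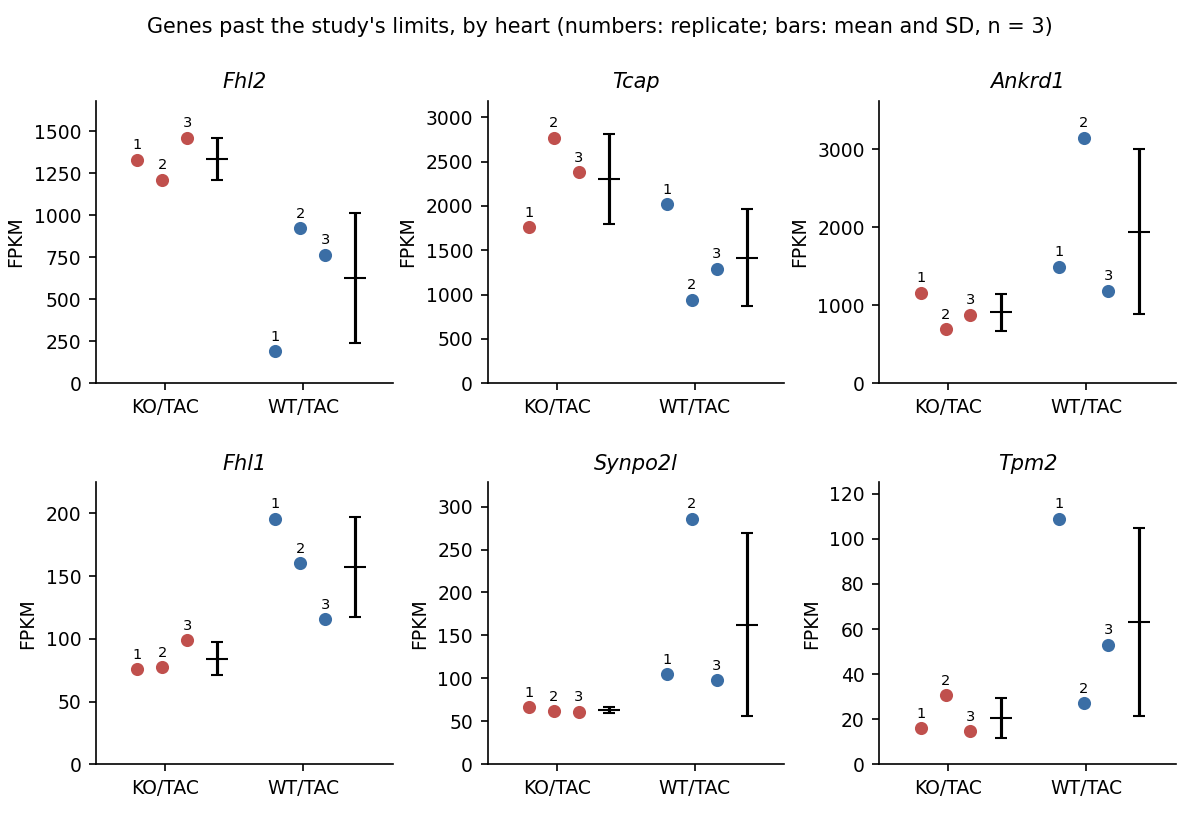
FPKM of the 6 genes that rose or fell in KO/TAC, with 1 point per heart marked by its replicate number, KO/TAC at the left and WT/TAC at the right, and the mean and SD of 3 hearts beside the points. Fhl2 and Tcap are higher in KO/TAC, and Ankrd1, Fhl1, Synpo2l and Tpm2 are lower. WT/TAC replicate 1 is the lowest heart for Fhl2, at 191 FPKM, and the highest for Tpm2, at 109 FPKM.

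The promoters of these genes were read because motifs of muscle genes are known there. The RefSeq table for GRCm38.p6 holds 32 of the 39 genes, and the 250 bases before the first listed start were searched on both strands. The CArG box, bound by serum response factor, was found in 6 of 32 (18.8%, against 1.40% of all 27025 promoters and 1.17% of the 9963 promoters of tested genes), in Acta1, Actc1, Fhl1, Fhl2, Ldb3 and Myom1. The MEF2 box was found in 5 of 32 (15.6%, against 0.518% of all and 0.512% of those of tested genes), in Mybpc3, Myoz2, Synpo2l, Ttn and Xirp2. The M-CAT element, bound by TEAD factors and searched as CATTCC, was found in 8 of 32 (25.0%, against 12.6% of all and 10.7% of those of tested genes). The TATA box, searched as TATAAA, was found in 5 of 32 (15.6%, against 13.0% of all and 6.58% of those of tested genes). The GATA motif, searched as AGATAA, was found in 5 of 32 (15.6%, against 10.3% of all and 5.71% of those of tested genes). The E-box of muscle regulators, searched as CANNTG, was found in 28 of 32 (87.5%, against 66.0% of all and 57.2% of those of tested genes). The CArG and MEF2 boxes can hold a TATA box, and such a stretch would count for both. Both Fhl2, which rose, and Fhl1, which fell, have a CArG box, and Acta1 and Actc1, which differ in their pattern over the hearts, have one each. Before a further listed start, Fhl2 also has a CArG box and Fhl1 has none. The Fhl1 promoter searched lies within the span of the gene given above, and which starts these hearts used was not tested. The promoters of 4 of the called genes and of Acta1 are shown as the 250 bases before the start, 5′ to 3′, with all motifs but the E-box in capitals.
Fhl2 (chr1:43196762-43197011, minus strand): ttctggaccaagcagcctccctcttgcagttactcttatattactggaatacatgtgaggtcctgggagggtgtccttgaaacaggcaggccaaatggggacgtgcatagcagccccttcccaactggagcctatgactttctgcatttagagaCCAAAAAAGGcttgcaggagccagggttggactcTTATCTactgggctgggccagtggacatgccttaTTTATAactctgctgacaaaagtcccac
Ankrd1 (chr19:36119845-36120094, minus strand): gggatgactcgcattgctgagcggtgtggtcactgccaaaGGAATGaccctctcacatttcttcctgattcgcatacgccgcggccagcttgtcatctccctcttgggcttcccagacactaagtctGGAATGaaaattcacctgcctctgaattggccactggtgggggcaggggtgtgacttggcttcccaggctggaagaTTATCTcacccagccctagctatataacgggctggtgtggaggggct
Fhl1 (chrX:56779433-56779682, plus strand): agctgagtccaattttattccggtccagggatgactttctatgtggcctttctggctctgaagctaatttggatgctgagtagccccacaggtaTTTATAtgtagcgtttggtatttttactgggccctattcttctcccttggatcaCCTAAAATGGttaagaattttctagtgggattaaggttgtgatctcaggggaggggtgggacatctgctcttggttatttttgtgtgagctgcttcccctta
Synpo2l (chr14:20668355-20668604, minus strand): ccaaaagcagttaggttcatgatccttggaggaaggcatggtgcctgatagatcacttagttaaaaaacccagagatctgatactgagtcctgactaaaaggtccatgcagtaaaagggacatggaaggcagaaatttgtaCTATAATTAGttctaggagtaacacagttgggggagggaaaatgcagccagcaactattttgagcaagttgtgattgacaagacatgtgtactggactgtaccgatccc
Acta1 (chr8:123894776-123895025, minus strand): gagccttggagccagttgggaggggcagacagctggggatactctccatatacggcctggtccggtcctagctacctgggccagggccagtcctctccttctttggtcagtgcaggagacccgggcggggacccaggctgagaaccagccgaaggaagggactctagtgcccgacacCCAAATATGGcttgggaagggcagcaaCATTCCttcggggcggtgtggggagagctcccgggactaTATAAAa
In Fhl2 the capitals mark, 5′ to 3′, the CArG box, AGATAA on the reverse strand and TATAAA on the reverse strand. In Ankrd1 they mark CATTCC on the reverse strand at 2 places and then AGATAA on the reverse strand. In Fhl1 they mark TATAAA on the reverse strand and the CArG box, in Synpo2l the MEF2 box, and in Acta1 the CArG box, CATTCC and TATAAA. These are matches of letters, not shown binding sites.

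Among the 12 genes of the thin filament and its capping proteins, 0 rose and 1, Tpm2, fell by limma (1 with an unadjusted p under 0.05, and 0 called by the 2-sample test on FPKM), and the median log2 fold change was 0.15. When WT/TAC replicate 1 was left out, 2 rose and 3 fell, with a median of 0.03. Over all genes tested, 4.94% rose and 6.14% fell with all hearts, and 7.52% and 7.47% did so without that heart. The main cardiac isoforms were among the most abundant genes of the heart. Cardiac α-actin, Actc1, was at 9909, 9042 and 9003 FPKM in KO/TAC, against 6657, 9146 and 9663 FPKM in WT/TAC. Tpm1, the main tropomyosin, was at 11643, 13606 and 12089.7 FPKM in KO/TAC, against 7339, 11751 and 11703 FPKM in WT/TAC. For both, WT/TAC replicate 1 was the lowest heart and the groups overlapped otherwise, and the 95% intervals of the log2 fold changes ran from -0.30 to 0.60 for Actc1 and from -0.23 to 0.85 for Tpm1.

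The 3 subunits of cardiac troponin differed in how they spread over the hearts. Tnni3, the inhibitory subunit, was at 5810.2, 7121 and 6844 FPKM in KO/TAC, against 5497, 4321 and 5671 FPKM in WT/TAC. The groups lay apart, by a small step, and the log2 fold change of 0.36 (SE 0.17, adjusted p = 0.506) did not pass, while 0.41 without WT/TAC replicate 1 did (adjusted p = 0.298). Tnnt2, which ties troponin to tropomyosin, was at 7209, 6448 and 7202 FPKM in KO/TAC, against 6739, 7329 and 5036 FPKM in WT/TAC, with WT/TAC replicate 3 the lowest heart. Tnnc1, the calcium sensor, was at 5876, 4815 and 5416 FPKM in KO/TAC, against 2298, 6422 and 5050.3 FPKM in WT/TAC. Its value in WT/TAC replicate 1 was far under that of the other hearts, and its log2 fold change was 0.35 with all hearts and -0.09 without that heart, neither past the limits.

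Acta1, the skeletal α-actin of the fetal and the loaded heart (chr8:123891758-123894775), had the widest range of the 38 genes on the log2 scale. It was at 1498, 291 and 795 FPKM in KO/TAC, against 12.2, 5114 and 2497 FPKM in WT/TAC. WT/TAC replicate 1 was the lowest heart and WT/TAC replicates 2 and 3 the highest, with WT/TAC replicate 2 at 418 times WT/TAC replicate 1. The log2 fold change was 0.36 with all hearts (SE 2.16, 95% interval -4.76 to 5.49), and -2.35 without WT/TAC replicate 1 (SE 0.68, adjusted p = 0.222), so the direction turned on that heart. The slow myosin heavy chain Myh7, which is also known to return under load, was at 93.8, 76.4 and 45.3 FPKM in KO/TAC, against 14.4, 1327 and 173 FPKM in WT/TAC, with the same heart lowest and the same heart highest. The share of Acta1 in the sum of Acta1 and Actc1 was 13.1%, 3.11% and 8.11% in KO/TAC, against 0.183%, 35.9% and 20.5% in WT/TAC. The mean share was 8.12% ± 5.01 in KO/TAC and 18.9% ± 17.9 in WT/TAC (SD, n = 3 each, exact two-sided permutation p = 0.5, adjusted over 4 shares 0.667). In the other 5 hearts the share was 20.1 percentage points lower in KO/TAC (exact permutation p = 0.1, the smallest that 3 against 2 hearts allow). The coding sequences of Acta1 and Actc1 are identical at 86.2% of aligned bases with no identical run over 29 bases, and how fragments that match both were assigned is not given in the sources used here.

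Other minor isoforms were at low levels in both groups. Tnnt1, the slow skeletal troponin T, was at 11.9, 17.6 and 16.95 FPKM in KO/TAC, against 21.5, 6.65 and 11.99 FPKM in WT/TAC. It was called higher once WT/TAC replicate 1, its highest heart, was left out (log2 fold change 0.74, adjusted p = 0.301), and with log2 Myl7 as a covariate (0.75, adjusted p = 0.438), but not with all hearts. Tnnt3, the fast form, was at 2.71, 1.02 and 0.23 FPKM in KO/TAC, against 1.39, 0.60 and 1.05 FPKM in WT/TAC. The share of both in troponin T was 0.243% ± 0.0434 in KO/TAC and 0.232% ± 0.122 in WT/TAC (SD, n = 3 each, exact permutation p = 0.9, adjusted 0.9). Tnni1, the slow skeletal troponin I of the fetal heart, was at 0.14, 0.75 and 0 FPKM (listed at 0) in KO/TAC, against 1.48, 0.13 and 0.90 FPKM in WT/TAC, so its share in troponin I was at most 0.0269% in any heart (exact permutation p = 0.2, adjusted 0.4). It passed only without WT/TAC replicate 2, as lower in KO/TAC (log2 fold change -1.18, adjusted p = 0.285). Of 9 skeletal muscle markers, 5 were under 0.5 FPKM in all 6 hearts, and the list summed to 3.10 to 5.39 FPKM in KO/TAC and to 28.2, 2.60 and 6.06 FPKM in WT/TAC, with Tnni2 at 20.2 FPKM in WT/TAC replicate 1. Their part in the minor isoforms was not tested.

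Lmod2, leiomodin, which lengthens thin filaments, was at 344, 426 and 392 FPKM in KO/TAC, against 209, 528 and 457 FPKM in WT/TAC. It was the gene besides Acta1 whose call without WT/TAC replicate 1 had the opposite sign to the fit with all hearts, with a log2 fold change of 0.06 with all hearts and -0.35 without that heart (adjusted p = 0.290). Tmod1, tropomodulin, which caps the pointed ends, was at 157, 178 and 185 FPKM in KO/TAC, against 242, 157 and 164 FPKM in WT/TAC, with no call in either fit.

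**Figure D3:**
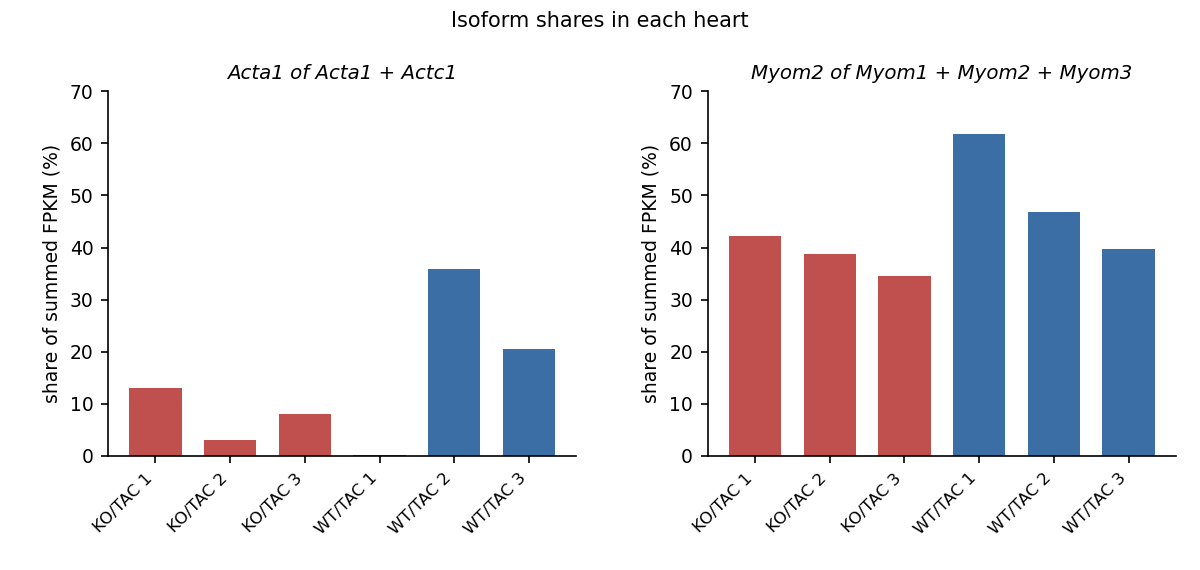
Share of summed FPKM, in percent, that was skeletal actin Acta1 among both striated actins (left) and Myom2 among the 3 myomesins (right), with a bar for each heart, KO/TAC in red left of WT/TAC in blue. The Acta1 share in WT/TAC runs between 0.183% in replicate 1 and 35.9% in replicate 2, while all 3 KO/TAC hearts lie between these. The Myom2 share is highest in WT/TAC replicate 1, at 61.8%.

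Of the 6 genes of titin, the thick filament and the M-band, 0 rose and 0 fell, both with all hearts and without WT/TAC replicate 1, and 0 had an unadjusted limma p under 0.05 in either fit. By the 2-sample test on FPKM 0 of them were called, while the fit with log2 Myl7 as a covariate called Myom2 lower. Titin, Ttn, the elastic filament from Z-disc to M-band, was at 43.7, 42.4 and 41.0 FPKM in KO/TAC, against 32.0, 48.5 and 38.35 FPKM in WT/TAC (log2 fold change 0.11, 95% interval -0.27 to 0.50). Mybpc3, cardiac myosin-binding protein C, was at 1286, 1088 and 1058 FPKM in KO/TAC, against 513, 1533 and 1169 FPKM in WT/TAC (log2 fold change 0.23, 95% interval -0.69 to 1.14). Both were lowest in WT/TAC replicate 1 and highest in WT/TAC replicate 2. Unc45b, a chaperone of myosin, was at 77.5, 87.7 and 91.6 FPKM in KO/TAC, against 91.2, 61.8 and 99.8 FPKM in WT/TAC, with overlapping groups.

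The myomesins, which link thick filaments at the M-band, were not called in the main comparison. Myom1 was at 397, 341 and 384 FPKM in KO/TAC, against 214, 485 and 355 FPKM in WT/TAC. Myom2 was at 292, 216 and 204 FPKM in KO/TAC, against 347, 430.1 and 236 FPKM in WT/TAC. For Myom2 the log2 fold change was -0.48 (SE 0.25, adjusted p = 0.537), and it passed without WT/TAC replicate 3 (-0.72, adjusted p = 0.354) and with log2 Myl7 as a covariate (-0.65, adjusted p = 0.488). Myom3 was at 1.52, 1.00 and 1.12 FPKM in KO/TAC, against 1.33, 1.89 and 1.51 FPKM in WT/TAC, with overlapping groups. The share of Myom2 in the 3 myomesins was 42.3%, 38.7% and 34.6% in KO/TAC, against 61.8%, 46.9% and 39.8% in WT/TAC. The mean share was 38.5% ± 3.83 in KO/TAC and 49.5% ± 11.2 in WT/TAC (SD, n = 3 each, exact permutation p = 0.2, adjusted 0.4), and the groups overlapped. With 3 against 3 hearts this test cannot go below 0.1, so it cannot decide whether the shares differ. With a heart left out, KO/TAC minus WT/TAC ran from -15.8 to -4.83 percentage points.

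Of 11 Z-disc genes 10 were tested, 1 rose (Tcap) and 1 fell (Synpo2l), with a median log2 fold change of 0.10. With WT/TAC replicate 1 left out, 2 rose and 2 fell, with a median of -0.07. The shares of all genes tested that rose and fell were 4.94% and 6.14% with all hearts, and 7.52% and 7.47% without that heart. Actn2, the α-actinin that crosslinks actin at the Z-disc, was at 919, 845 and 887 FPKM in KO/TAC, against 620.4, 992 and 916 FPKM in WT/TAC. Ldb3, which holds α-actinin in place, was at 613, 639 and 634 FPKM in KO/TAC, against 489.8, 591 and 689 FPKM in WT/TAC. The KO/TAC hearts were close to each other for both genes and lay within the range of WT/TAC, and the 95% intervals of the log2 fold change ran from -0.36 to 0.56 for Actn2 and from -0.25 to 0.46 for Ldb3. Flnc, filamin C, an actin crosslinker of the Z-disc and the cell membrane, was at 70.5, 55.95 and 54.8 FPKM in KO/TAC, against 56.6, 118 and 113 FPKM in WT/TAC. Its log2 fold change of -0.60 (adjusted p = 0.508) did not pass with all hearts, and -0.94 without WT/TAC replicate 1 did (SE 0.14, adjusted p = 0.0925). Nebl, nebulette, which binds actin next to the Z-disc, was at 17.8, 20.9 and 23.6 FPKM in KO/TAC, against 30.9, 15.1 and 12.5 FPKM in WT/TAC. It passed only without WT/TAC replicate 1, its highest heart, as higher in KO/TAC (log2 fold change 0.57, adjusted p = 0.213).

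Myot, myotilin, an actin-binding Z-disc protein, was at 66.1, 33.2 and 41.0 FPKM in KO/TAC, against 0.80, 93.5 and 50.95 FPKM in WT/TAC. WT/TAC replicate 1 was the lowest heart by far, and the log2 fold change was 1.296 with all hearts (95% interval -2.26 to 4.86) and -0.62 without it, neither past the limits. Pdlim3, a PDZ and LIM protein that binds α-actinin, was at 7.66, 16.4 and 13.8 FPKM in KO/TAC, against 34.0, 11.8 and 27.9 FPKM in WT/TAC. It passed only without WT/TAC replicate 2, as lower in KO/TAC (log2 fold change -1.32, adjusted p = 0.214). Its relative Pdlim5 and the calcineurin-binding Myoz2 had means of 320.5 ± 71.9 and 927 ± 144 FPKM in KO/TAC and of 301 ± 89.5 and 879.7 ± 147 FPKM in WT/TAC (SD, n = 3 each), and neither was called. Myoz1, the form of fast skeletal muscle, was below the limit of 0.5 FPKM on the mean and was not tested, with 0.29, 0.18 and 0.18 FPKM in KO/TAC, against 0.35, 1.12 and 0.30 FPKM in WT/TAC.

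Of the 8 stretch-responsive and LIM-domain genes, 1 rose (Fhl2) and 2 fell (Ankrd1 and Fhl1), with a median log2 fold change of -0.44. In the fit without WT/TAC replicate 1, 1 rose and 5 fell, with a median of -0.88. Of all genes tested, 4.94% rose and 6.14% fell with all hearts, and 7.52% rose and 7.47% fell without that heart. Xirp1, the actin-binding repeat protein Xin of the intercalated disc, was at 47.4, 46.7 and 44.9 FPKM in KO/TAC, against 33.7, 108 and 141 FPKM in WT/TAC. Its log2 fold change was -0.79 with all hearts (SE 0.49, adjusted p = 0.603) and -1.40 without WT/TAC replicate 1 (SE 0.13, adjusted p = 0.0419). Its relative Xirp2 was at 43.1, 26.3 and 30.6 FPKM in KO/TAC, against 10.8, 122 and 38.8 FPKM in WT/TAC, and did not pass in either fit (log2 fold change -0.19 with all hearts and -1.06 without WT/TAC replicate 1, adjusted p = 0.951 and 0.354). Ankrd2, the skeletal muscle relative of Ankrd1, was at 2.01, 0.77 and 0.56 FPKM in KO/TAC, against 0.29, 7.15 and 1.83 FPKM in WT/TAC, and was called lower without WT/TAC replicate 1 (log2 fold change -1.49, adjusted p = 0.307) and with log2 Myl7 as a covariate (-1.49, adjusted p = 0.482), but not with all hearts. For Xirp2, Ankrd2 and Ankrd1 alike, WT/TAC replicate 2 was the highest heart, at 3.65, 6.42 and 3.46 times the KO/TAC mean.

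Nrap, which joins actin to the membrane at growing myofibrils, was at 207, 171 and 173 FPKM in KO/TAC, against 122, 283 and 247 FPKM in WT/TAC. With all hearts its log2 fold change was -0.16 and not called, and without WT/TAC replicate 1 it was -0.53 (adjusted p = 0.179). Csrp3, the muscle LIM protein, a stretch sensor of the Z-disc, was at 1776, 1240.1 and 1859.7 FPKM in KO/TAC, against 1278, 1891 and 1246 FPKM in WT/TAC. The ranges nearly coincided, and its log2 fold change was 0.15 (95% interval -0.41 to 0.70).

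Desmin, Des, the intermediate filament that ties Z-discs to each other, was at 1027, 893 and 1037 FPKM in KO/TAC, against 721, 1779 and 1226 FPKM in WT/TAC. It was not called with all hearts (log2 fold change -0.24, adjusted p = 0.806) and passed as lower once WT/TAC replicate 1 was left out (log2 fold change -0.59, adjusted p = 0.225). Cryab, αB-crystallin, the chaperone of desmin and titin, was at 2989, 2693 and 3045 FPKM in KO/TAC, against 2695, 3319 and 3587 FPKM in WT/TAC. Its difference was under the limit on the fold in both fits, with a log2 fold change of -0.13 with all hearts and -0.25 without WT/TAC replicate 1.

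**Figure D4:**
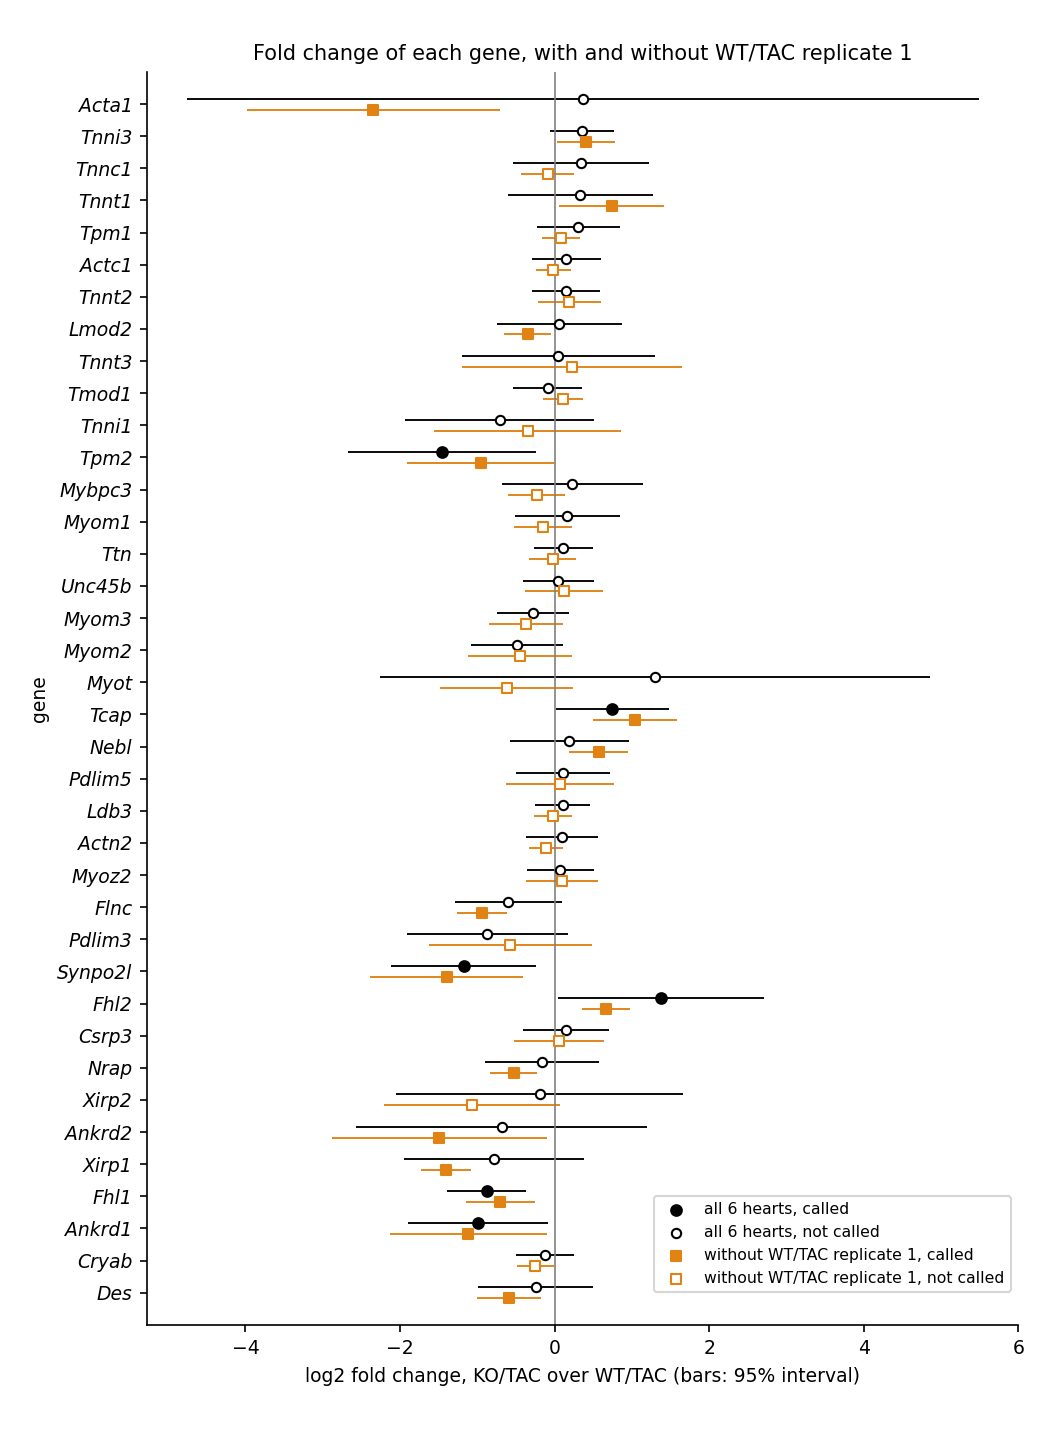
Log2 fold change, KO/TAC over WT/TAC, of each of the 38 genes on the log2(FPKM + 0.5) scale with its 95% interval from limma, with black circles for all 6 hearts and orange squares for the fit without WT/TAC replicate 1, filled where the gene passed the limits. Of the black symbols 6 are filled and of the orange ones 16. The intervals of Acta1 and Myot shrink most without that heart, and both symbols move to the left of 0.

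The contractile genes spread more between WT/TAC hearts than between KO/TAC hearts. On the log2 scale the median SD of a gene was 0.18 among the KO/TAC hearts and 0.59 among the WT/TAC hearts, beside 0.14 and 0.26 over all genes tested. Without WT/TAC replicate 1 the WT/TAC value was 0.33 from 2 hearts, beside 0.17 over all genes. The SD was larger in WT/TAC for 36 of 38 genes (94.7%), where it was for 77.4% of all genes, the exceptions being Tnnt3 and Myom3. The highest value lay in WT/TAC replicate 2 for 20 of 38 genes (52.6%, where 14.3% of all genes did), and the lowest in WT/TAC replicate 1 for 17 (44.7%, where 22.0% of all genes did). Together the 39 genes made up 10.6% to 10.7% of the FPKM sum in KO/TAC, and 7.51%, 11.9% and 10.6% of it in WT/TAC. The summed ventricular markers were at their lowest and the summed atrial ones at their highest in WT/TAC replicate 1. The atrial marker Bmp10 was an exception, at 0.19 FPKM there, against 5.80 FPKM in KO/TAC replicate 2 and 12.8 FPKM in WT/TAC replicate 3. WT/TAC replicate 2 had 0.23 FPKM of Myl7 and 11784 FPKM of Myl2. The part of these markers in the shares above was not tested.

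A further 50 genes of the sarcomere, Z-disc, costamere and filament chaperones were taken as a list of partners, and 44 of them were tested. Of these 3 rose in KO/TAC and 4 fell (6.82% and 9.09%, beside the shares of all genes above), with a median log2 fold change of -0.07. Without WT/TAC replicate 1, 3 rose and 11 fell (6.82% and 25.0%, where 7.52% and 7.47% of all genes did). Ky, a protease of muscle growth, was at 5.92, 7.33 and 5.43 FPKM in KO/TAC, against 0.71, 1.71 and 2.59 FPKM in WT/TAC (log2 fold change 1.72, adjusted p = 0.229). Lmod3 and Tmod4, thin-filament relatives of Lmod2 and Tmod1 known mainly in skeletal muscle, had log2 fold changes of 0.67 and 0.60 (adjusted p = 0.356 and 0.413). Lmod3 averaged 46.2 ± 0.826 FPKM in KO/TAC and 29.7 ± 9.10 FPKM in WT/TAC, and Tmod4 averaged 18.4 ± 0.911 FPKM in KO/TAC and 12.4 ± 3.79 FPKM in WT/TAC (SD, n = 3 each). The genes that fell were Actn4, a non-muscle α-actinin (-0.47), Tln1, the talin that links integrins to actin (-0.37), Hspb1, a small heat shock protein (-0.76), and Synm, synemin, a partner of desmin (-0.87), with adjusted p of 0.309 to 0.439. The groups did not overlap for any of these 7 genes, which are named because they were called. Among all 44 partner genes tested the groups lay apart for 8 (18.2%), where they did for 18.3% of all genes. The summed level of 4 fibroblast markers was 243 to 293 FPKM in KO/TAC and 354 to 542 FPKM in WT/TAC, and its part in Actn4 and Tln1, which other cells of the heart also make, was not tested.

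The deleted miRNA acts by pairing of its seed, bases 2 to 8, with sites in the 3′ UTR of target mRNAs, which is why the sites in these genes are shown. Its relative miR-27a-3p has the same seed, so the same sites also match a miRNA that is not deleted in KO/TAC. The study reported no difference in miR-27a between wild-type and knockout hearts, and a rise of it after TAC. The mature mouse sequence of the deleted miRNA in RefSeq (GRCm38.p6) has the seed in capitals.
mmu-miR-27b-3p (chr13:63300760-63300780, plus strand): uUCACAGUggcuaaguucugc
A site, ACTGTGA, was present in the longest annotated 3′ UTR of 5 of the 39 genes (12.8%), where 17.3% of the 12320 tested genes with a 3′ UTR had one. The 3′ UTRs of the 39 genes were shorter, with a median of 444 bases against 1188 bases. The 5 genes are Flnc, Myot, Nebl, Unc45b and Xirp2. The sites of 4 of them are shown with 11 bases on each side, the bases that pair with the seed in capitals, and coordinates of the capitals on GRCm38.
Flnc (chr6:29461455-29461461, plus strand): tccgggcagagACTGTGAaataaggggtt
Nebl (site 1) (chr2:17347231-17347237, minus strand): tagtgcctctgACTGTGActtgcagcttg
Nebl (site 2) (chr2:17344019-17344025, minus strand): ttttcctctacACTGTGAatcttaagcct
Unc45b (chr11:82942787-82942793, plus strand): gttggtcctgaACTGTGAagagtcgtgag
Xirp2 (chr2:67525949-67525955, plus strand): tcttctctaacACTGTGAaaatcacctct
None of the 5 genes passed the limits by limma with all hearts, in either direction (0 with an unadjusted p under 0.05, and 0 called by the 2-sample test on FPKM). Their log2 fold changes were 1.296 for Myot, 0.19 for Nebl, 0.05 for Unc45b, -0.19 for Xirp2 and -0.60 for Flnc, with a median of 0.05, beside 0.08 for the other 33 genes tested. Without WT/TAC replicate 1, Nebl was called higher and Flnc lower.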

How the data were processed

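RNA of 3 KO/TAC and 3 WT/TAC hearts was sequenced from KAPA stranded libraries. The authors deposited FPKM to 2 decimals, 1 file per heart, for 17570 Entrez Gene IDs, of which 17441 matched a RefSeq symbol. HISAT2 2.0.5 is named in the submitters' processing notes, as is StringTie 1.3.3. The mouse build and the settings are not given with certainty in the sources used here. FPKM are not counts and mix transcripts of a gene, so no count test and no counting intervals are given. The p-values set a difference against the spread between these hearts, which limma draws in part from all genes tested.

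The 12520 genes whose mean reached 0.5 FPKM were tested in R 4.3.3 with limma 3.58.1 (lmFit, eBayes with a trend) on log2(FPKM + 0.5), two-sided, with Benjamini-Hochberg adjustment over all of them, and the script was tested on simulated data. A fold change on this scale understates that of low genes. A gene was called where p was under 0.05 before adjustment and the fitted fold reached 1.2 in either direction. Isoform shares were compared by exact permutation tests, which with 3 against 3 hearts cannot go below 0.1. Python 3.11.15 with numpy 2.4.6, pandas 2.3.3, Biopython 1.88 and matplotlib 3.10.9 did the rest. All genes of the set are accounted for, and values of every heart are given for called genes, genes called with a heart left out, genes with groups apart, the 8 most abundant, the isoform families and Ttn, Mybpc3, Csrp3, Xirp1, Xirp2, Flnc, Cryab and Des, and for others where useful. Of the partner genes, up to 4 called in each direction are named. The genes, lists and tests were chosen with earlier results of these data known.

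Promoters and the miRNA come from RefSeq tables (GRCm38.p6), and coding sequences, 3′ UTRs and site positions from GENCODE M21 (GRCm38). Coding sequences were compared in place of proteins. Alternatives were a pseudocount of 0.1 or 1, a minimum mean of 5 FPKM or none, median-ratio rescaling, quantile normalization, no variance trend, robust eBayes, a replicate block, log2 Myl7 as a covariate, a 2-sample test on FPKM and each heart left out, with the tested genes held fixed in the last. Those for the partner genes and for the overlap of groups were chosen after seeing the data.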

Additional observations from a re-analysis of the deposited data

How the results depend on the processing

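All values here rest on 3 hearts a group, so a single heart can decide a call. Of the 6 genes called, all but Fhl1 lost the call with at least 1 heart left out. With a heart left out, the number called ran from 1 without KO/TAC replicate 3 to 16 without WT/TAC replicate 1. These are 2.63% and 42.1% of the 38, where 5.04% and 15.0% of all genes were called. Between 0 and 5 were higher and 1 to 11 lower, and the median log2 fold change ran from -0.19 to 0.13. The number of genes whose groups do not overlap was 5 with all hearts (13.2%, where 18.3% of all genes did not overlap). It was 5 to 14 with a heart left out. Fewer hearts overlap less easily by construction, and the share of all genes was not taken there. Of the partner genes 7 were called with all hearts (15.9%, where 11.1% of all genes were). With a heart left out 3 to 14 were called, the fewest (6.82%) without KO/TAC replicate 3 and the most (31.8%) without WT/TAC replicate 1. With log2 Myl7 as a covariate, 10 genes were called (26.3%, where 9.83% of all genes were), 7 of them lower, and 4 partner genes (9.09%). The 2-sample test on FPKM called 2 genes (5.26%, where it called 8.16% of all genes), 1 higher and 1 lower, and 4 partner genes (9.09%). Without the filter, and with quantile normalization, 0 were called higher and 4 lower. Without the filter, 4.89% of the 12520 genes were called higher and 6.08% lower, and with quantile normalization 5.64% and 5.59%. The cause of these differences was not tested.

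The replicate numbers are not stated to pair the hearts, so the main fit has no block. The deviations of same-numbered hearts from their group means correlated at -0.29, -0.57 and -0.35. Deviations within a group sum to 0, so these values cannot show whether hearts were matched. With the replicate block, 4 genes were called, 1 higher (Fhl2) and 3 lower (Fhl1, Synpo2l and Tpm2), and Tcap (adjusted p = 0.753) and Ankrd1 (adjusted p = 0.711) were not. These are 2.63% and 7.89% of the 38, where 2.84% and 4.19% of all genes were called higher and lower.

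Acta1 was called without WT/TAC replicate 1 with the opposite sign to the fit with all hearts, and its log2 fold change ran from -2.35 to 1.98 with a heart left out. The same holds for Lmod2, from -0.35 to 0.32. The share of Acta1 in striated actin was 10.7 percentage points lower in KO/TAC, but its log2 ratio to Actc1 was 0.20 higher. The difference in the share of Tnnt1 and Tnnt3 was 0.0108 percentage points and ran from -0.0556 to 0.0641 with a heart left out. Over all 38 genes, the sign changed in 16 of 414 values under other settings and in 28 of 228 with a heart left out, in 23 genes, of which 0 were among the 6 called ones. All other values of the genes kept their direction.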
